A study of Mus musculus with 16 samples.

Results

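The genes of cholesterol synthesis and of its control by the SREBP transcription factors were examined in the corpus callosum of mice fed cuprizone (CPZ), a copper chelator that kills oligodendrocytes and strips this white matter tract of myelin. The set comprised 28 genes, taken from knowledge of the pathway and not from a threshold on these data. It was chosen with earlier results of these data known, and the paper had reported SREBP control as down-regulated. Its counts beside all tested genes are therefore not an independent test. All 28 genes were on the arrays, with 47 of 41153 probes, and 46 of these probes were among the 27778 tested. A gene was given by its brightest tested probe, which was well above background on all 16 arrays and saturated on none for each of the 28 genes. All values below are log2 signals relative to the 75th percentile of the same array, so that a difference of 1 is 2-fold, and levels of different genes are not compared.

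RNA came from punched corpus callosum of male C57BL/6 mice, which entered the experiments at 7 to 8 weeks of age, and it was hybridised to single-colour Agilent arrays. Untreated mice on normal chow gave 3 arrays, mice fed CPZ for 2 weeks gave 3 and those fed it for 4 weeks gave 4. The other 6 arrays were of mice fed CPZ for 4 weeks and then returned to regular diet. By the methods the untreated mice were matched in age to those fed CPZ for 4 weeks, and no match is given for the other groups. The chow held 0.2% CPZ by the methods and 0.2 to 0.4% by the labels. The methods name 2 days and 14 days on regular diet, and a figure legend of the paper gives n = 3 for each. The labels do not tell these arrays apart, so the 6 arrays form 1 group. The methods give 3 to 6 mice for a condition, and the labels do not tie each array to a mouse. In bulk tissue, fewer cells of a type and less RNA per cell cannot be told apart. Of the 16 columns of the deposited processed table, each matched 1 scanner file with r of at least 0.999985, but 14 of these files were recorded under another sample, 13 of them in another group. The number closing the matched file's name equalled the column's place in the series for all 16. The median of the 3 untreated columns was 0 for 100% of probes, against 52.1% for the next best set of 3 columns. Arrays were therefore assigned by the columns of the table. Under the assignment recorded for the scanner files, the median over the 28 genes turned from -0.82 to 0.43 at 2 weeks and from -0.76 to 0.30 at 4 weeks against untreated, so each direction given here rests on the table's columns.

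Cholesterol is made from acetyl-CoA through mevalonate, isoprenoid diphosphates, squalene and lanosterol. The brain makes its own, since plasma lipoproteins do not cross the blood-brain barrier, and myelin holds most of it. When sterols are scarce in the endoplasmic reticulum, the escort protein Scap carries SREBP to the Golgi, where the proteases Mbtps1 and Mbtps2 release a fragment that enters the nucleus. This fragment binds sterol regulatory elements together with the cofactors NF-Y and Sp1. Insig proteins hold Scap back when sterols are plentiful.

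The promoters of 3 genes with large differences under CPZ are shown because each carries the NF-Y box, and Hmgcs1 also carries the letters that SREBP is known to bind. Each stretch is the 200 bases before the transcription start on the gene's strand, from RefSeq on GRCm38.p6. Capitals mark the SRE letters TCACNCCAC and the NF-Y box CCAAT, each on either strand, so that a box on the other strand reads ATTGG. Hmgcs1 lies at chr13:119690151-119690350 (+), Idi1 at chr13:8885406-8885605 (+) and Msmo1 at chr8:64733579-64733778 (-).
Hmgcs1: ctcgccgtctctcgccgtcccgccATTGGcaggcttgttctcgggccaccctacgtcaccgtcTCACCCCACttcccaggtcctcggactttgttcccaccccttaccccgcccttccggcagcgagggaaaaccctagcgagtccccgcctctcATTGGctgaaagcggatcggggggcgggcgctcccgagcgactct
Idi1: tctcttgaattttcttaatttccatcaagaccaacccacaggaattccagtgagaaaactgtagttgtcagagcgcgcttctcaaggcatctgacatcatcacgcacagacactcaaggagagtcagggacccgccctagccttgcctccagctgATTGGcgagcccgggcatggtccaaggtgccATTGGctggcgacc
Msmo1: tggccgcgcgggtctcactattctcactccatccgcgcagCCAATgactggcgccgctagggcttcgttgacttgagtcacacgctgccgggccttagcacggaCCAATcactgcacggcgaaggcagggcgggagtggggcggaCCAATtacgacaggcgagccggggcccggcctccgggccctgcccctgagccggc

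Promoters of 24 of the 28 genes were in the table, each from 250 bases before to 50 bases after the start. Fdps, Fdft1, Sqle and Stard4 were not matched. The SRE letters occurred in 1 of the 24 genes, Hmgcs1, where they read TCACCCCAC and began at position -137, and in 1.44% of 27025 genes. The NF-Y box occurred in 21 of the 24 genes, or 87.5%, against 41.1% of all genes and 42.4% of 11145 genes tested on the arrays. The Sp1 box GGGCGG also occurred in 21 of the 24 genes, against 38.2% of all genes and 66% of the tested genes. These are counts of letters in a fixed window and not of bound sites.

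Under CPZ, most of the 28 genes lay lower than in untreated mice at both times. The median log2 difference from untreated was -0.82 at 2 weeks and -0.76 at 4 weeks, beside 0.05 and -0.04 over all 20603 tested genes, a number that includes transcripts with no gene name. With normexp background correction these medians of the 28 genes were -0.53 and -0.49. At 2 weeks 25 of 28 genes were below 0, against 44.8% of all genes, and at 4 weeks again 25 of 28, against 54.6% of all genes. All 3 arrays at 2 weeks lay below all 3 untreated arrays for 21 of the 28 genes, and 8.6% of all tested genes did so. None of the 28 lay above the untreated arrays at 2 weeks, against 8.19% of all tested genes. At 4 weeks all 4 arrays lay below the untreated arrays for 17 genes, with 4.45% of all tested genes as background. For 16 genes all 7 CPZ arrays lay below every untreated array, against 2.59% of all tested genes. No gene of the set lay above the untreated arrays on all 7 CPZ arrays, against 2.46% of all tested genes.

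No gene of the set passed the test of the limma fit over all 16 arrays, where a call needed both a 2-fold difference and p under 0.05 after Benjamini-Hochberg adjustment. This fit called 0.131% of all tested genes at 2 weeks and 0.0146% at 4 weeks. At an unadjusted p under 0.05 it held 15 of the 28 genes at 2 weeks, against 9.71% of all tested genes, and 11 at 4 weeks, against 10.9%. An analysis of variance with Tukey comparisons, the test that the methods name, also called 0 of the 28. The analysis of variance had no share of all tested genes to set beside its 0, so this 0 cannot be read against a background. It was run on the 4 labelled groups, with both times on regular diet in 1 group, whereas the study kept them apart. When only the 10 arrays of the untreated and CPZ groups were fitted, Hmgcs1, Insig1 and Stard4 passed at 2 weeks, with 0.132% of all genes called lower, and 0 genes passed at 4 weeks, with 0.0686%. The median residual SD of the 28 genes was 0.458 over the 16 arrays and 0.29 over the 10, whereas that of all tested genes was 0.4 and 0.411. In the 6 regular diet arrays the median SD of the 28 genes was 0.609, beside 0.159 in untreated arrays, 0.202 at 2 weeks and 0.325 at 4 weeks.

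**Figure D1:**
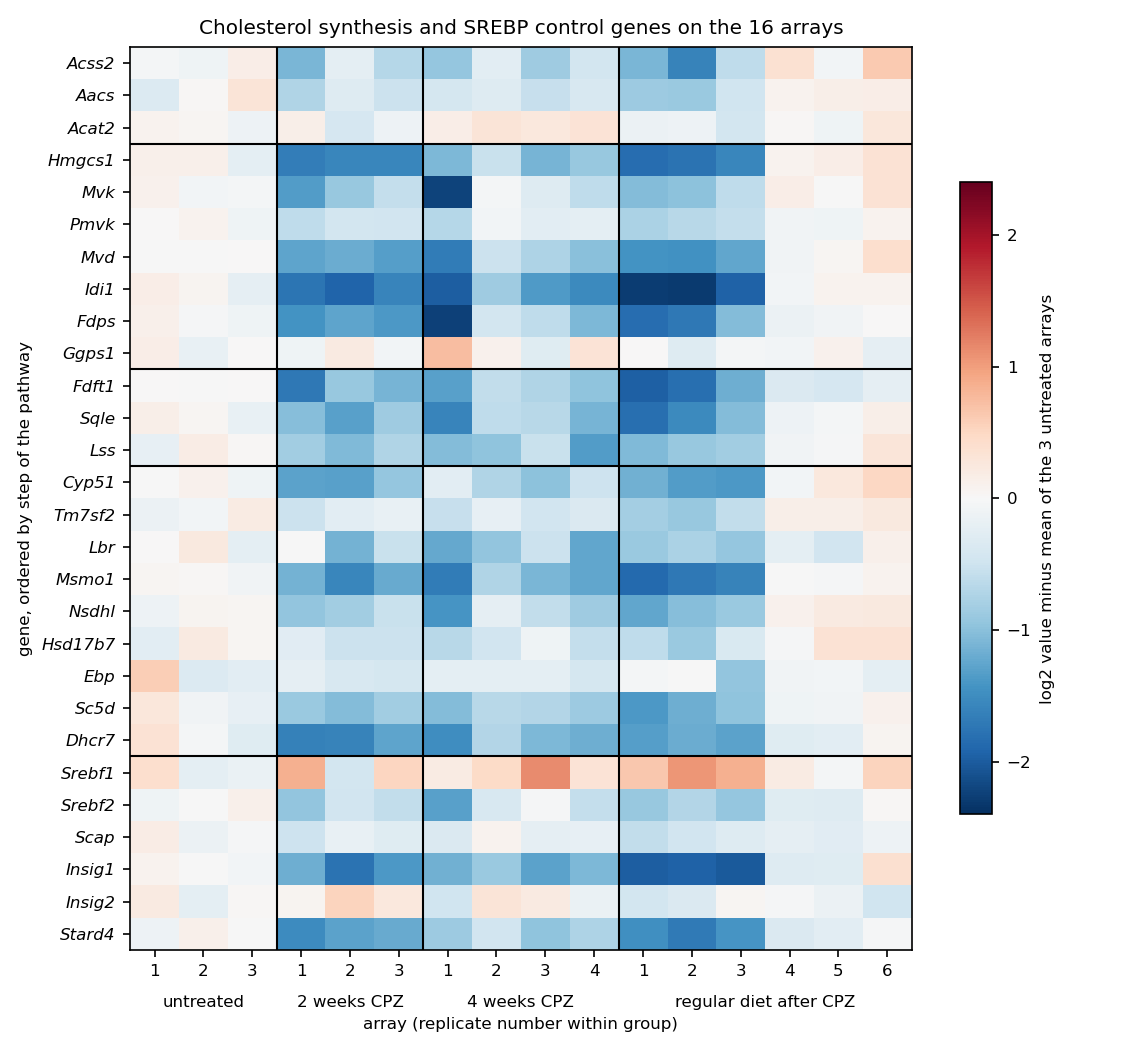
Heat map of the 28 genes (rows, from acetyl-CoA supply at the top to SREBP control and sterol transport at the bottom) on the 16 arrays (columns, by group), as log2 value minus the mean of the 3 untreated arrays. Most rows are blue on the 7 CPZ arrays and on regular diet arrays 1, 2 and 3, and pale on regular diet arrays 4, 5 and 6, while Srebf1 lies above the untreated mean on 6 of the 7 CPZ arrays.

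The first steps supply acetyl-CoA and acetoacetyl-CoA. Acss2, the cytosolic acetyl-CoA synthetase, was at -0.53, -0.59 and -0.32 in untreated mice, at -1.58, -0.72 and -1.17 after 2 weeks and at -1.41, -0.73, -1.33 and -0.92 after 4 weeks. Its CPZ arrays lay below the untreated arrays without overlap, by -0.68 at 2 weeks and -0.62 at 4 weeks. Aacs, which activates acetoacetate, differed by -0.52 and -0.42, the latter -0.27 without untreated array 3, and its groups overlapped at both times. Acat2, the cytosolic thiolase that joins acetyl-CoA units, was at 0.40, 0.36 and 0.20 in untreated mice and at 0.48, 0.63, 0.57 and 0.65 after 4 weeks. It was the 1 gene of the set whose 4-week arrays all lay above the untreated arrays, where 5.35% of all tested genes did, and its difference of 0.26 did not pass the test (limma adjusted p = 0.610).

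In the mevalonate and isoprenoid steps, 6 of 7 genes were below 0 at both times, with a median of -1.25 at 2 weeks and -0.91 at 4 weeks. Hmgcs1, the HMG-CoA synthase, was at 5.00, 5.00 and 4.65 in untreated mice, at 3.23, 3.32 and 3.32 after 2 weeks and at 3.80, 4.35, 3.77 and 3.98 after 4 weeks. The 3 groups did not overlap, and the 4-week arrays lay between the other two. Its difference at 2 weeks was -1.59 with an SE of 0.535 over the 16 arrays and of 0.206 over the 10 arrays, a level 3.01-fold lower. The limma adjusted p was 0.310 in the 16-array fit and 0.0300 in the 10-array fit. Its second probe gave -1.58 at 2 weeks and -0.90 at 4 weeks.

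Idi1, the isomerase of isopentenyl diphosphate, had the largest difference of the set at both times. It was at 2.39, 2.30 and 2.02 in untreated mice, at 0.49, 0.32 and 0.66 after 2 weeks and at 0.27, 1.38, 0.87 and 0.71 after 4 weeks. All 7 CPZ arrays lay below the untreated arrays, and the differences were -1.75 and -1.43. Its brightest probe did not pass in the 10-array fit at 2 weeks (limma adjusted p = 0.0543), and its other probe, at -1.87, was called there.

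Fdps, which makes farnesyl diphosphate, was at 1.52, 1.36 and 1.30 in untreated mice, at -0.04, 0.14 and 0.02 after 2 weeks and at -0.84, 0.95, 0.79 and 0.32 after 4 weeks. Mvd, the decarboxylase that yields isopentenyl diphosphate, was at 0.51, 0.51 and 0.52, then at -0.74, -0.67 and -0.81, and then at -1.16, 0.01, -0.23 and -0.48. For both genes the CPZ arrays lay below the untreated arrays, and the lowest value at 4 weeks was that of array 1. Mvk and Pmvk, the kinases that phosphorylate mevalonate, differed by -0.94 and -0.50 at 2 weeks without overlap, and by -0.79 and -0.31 at 4 weeks with overlap. Mvk was at -3.71, -1.53, -1.79 and -2.09 after 4 weeks, and without array 1 the 4-week differences were -0.31 for Mvk, -0.19 for Pmvk and -0.71 for Fdps. Ggps1, on the branch to geranylgeranyl diphosphate, was at 1.11, 0.77 and 0.97 in untreated mice and at 0.85, 1.16 and 0.89 after 2 weeks, so that its groups overlapped. Its brightest probe differed by 0.02 and 0.22 at the 2 times, while its other probe differed by -0.37 and -0.44. The values of the brightest probe were -0.08 without 2-week array 2 and 0.05 without 4-week array 1.

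The 3 genes from squalene to lanosterol were below 0 at both times, with a median of -1.06 at 2 weeks and -0.97 at 4 weeks. Fdft1, the squalene synthase, was at 1.63, 1.62 and 1.64 in untreated mice, at -0.08, 0.73 and 0.51 after 2 weeks and at 0.34, 1.04, 0.91 and 0.68 after 4 weeks. All CPZ arrays of this probe lay below the untreated arrays. The other Fdft1 probe went the opposite way, by 0.56 at 2 weeks and 0.98 at 4 weeks, so the direction of this gene depends on the probe. Sqle, the squalene epoxidase, was at 2.14, 2.05 and 1.83 in untreated mice, at 0.98, 0.71 and 1.14 after 2 weeks and at 0.42, 1.39, 1.34 and 0.90 after 4 weeks, without overlap. Lss, the cyclase that makes lanosterol, differed by -0.87 and -0.97, also without overlap.

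From lanosterol to cholesterol, all 9 genes were below 0 at both times, with a median of -0.77 at each. Msmo1, the methylsterol oxidase, was at 4.39, 4.38 and 4.27 in untreated mice, at 3.20, 2.79 and 3.14 after 2 weeks and at 2.67, 3.62, 3.24 and 3.10 after 4 weeks. Its groups were apart by -1.30 and -1.18. Dhcr7, the reductase of the last double bond on one route to cholesterol, was at 3.75, 3.35 and 3.11 in untreated mice, at 1.78, 1.80 and 2.14 after 2 weeks and at 1.91, 2.70, 2.32 and 2.24 after 4 weeks. It had the smallest adjusted p of the set in the 16-array fit at 2 weeks, with a difference of -1.50, an SE of 0.361 and a limma adjusted p of 0.154.

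Cyp51, the lanosterol demethylase, differed by -1.17 at 2 weeks and -0.62 at 4 weeks, and its 2 other probes gave -1.13 and -1.32 at 2 weeks and -1.06 and -1.24 at 4 weeks. Sc5d, the sterol desaturase, differed by -0.92 and -0.82 without overlap. Nsdhl, a sterol dehydrogenase of the demethylation steps, differed by -0.77 at both times without overlap. Tm7sf2 and Lbr both reduce the sterol double bond left by Cyp51, and Lbr is also the lamin B receptor. Tm7sf2 differed by -0.31 and -0.38 without overlap. Lbr was at 0.07, 0.30 and -0.18 in untreated mice, at 0.05, -1.07 and -0.47 after 2 weeks and at -1.16, -0.88, -0.45 and -1.19 after 4 weeks, and it was apart from untreated at 4 weeks only. Hsd17b7, a ketosteroid reductase, differed by -0.44 and -0.45, with no overlap at 2 weeks. Ebp, the sterol isomerase, differed by -0.34 and -0.28 with overlap, and its untreated values were 4.08, 3.16 and 3.23. Its 4-week sign rested on untreated array 1, without which it differed by -0.05 at 2 weeks and 0.01 at 4 weeks.

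**Figure D2:**
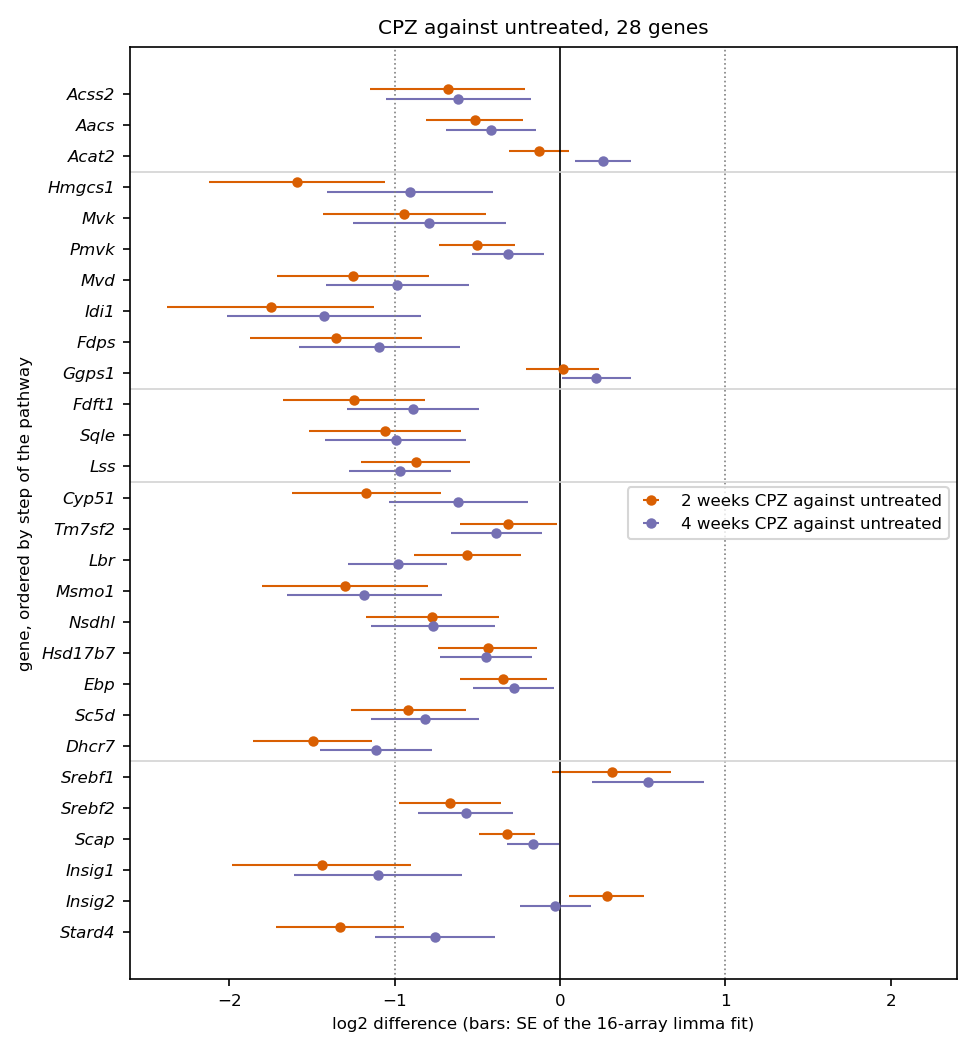
Log2 difference from untreated (x axis) of the 28 genes (y axis, by step) after 2 weeks (orange, 3 arrays) and 4 weeks (purple, 4 arrays) of CPZ, with the SE of the 16-array limma fit as bars and dotted lines at 2-fold. At 2 weeks 11 genes and at 4 weeks 5 genes lie at or beyond 2-fold lower, and none lies beyond 2-fold higher.

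At 2 weeks 11 of the 28 genes were at least 2-fold lower, a size that 2.87% of all tested genes reached. At 4 weeks Idi1, Fdps, Msmo1, Dhcr7 and Insig1 were at least 2-fold lower, where 8.7% of all tested genes were. This count of 5 became 3 without 4-week array 1, 9 without array 2 or array 3 and 8 without untreated array 3. No gene of the set was 2-fold higher at either time, against 9.81% of all tested genes at 2 weeks and 2.85% at 4 weeks.

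Of the 6 genes of SREBP control and sterol transport, 4 were below 0 at 2 weeks and 5 at 4 weeks, with medians of -0.49 and -0.37. Insig1, the retention protein that is itself an SREBP target, was at 0.23, 0.15 and 0.08 in untreated mice, at -1.02, -1.61 and -1.23 after 2 weeks and at -0.9995, -0.74, -1.13 and -0.92 after 4 weeks. All 7 CPZ arrays lay below the untreated arrays, by -1.44 at 2 weeks, a level 2.72-fold lower, and by -1.10 at 4 weeks. The 2-week difference passed in the 10-array fit (limma adjusted p = 0.0358) and not in the 16-array fit (0.373). Its other probe gave -1.27 and -1.52 and was called at 4 weeks in the 10-array fit. Insig2, its paralogue, was at 1.50, 1.05 and 1.32 in untreated mice, at 1.35, 1.83 and 1.54 after 2 weeks and at 0.81, 1.60, 1.50 and 1.14 after 4 weeks. Its groups overlapped at both times.

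Stard4, a cytosolic sterol carrier and SREBP target, was at 1.07, 1.32 and 1.18 in untreated mice, at -0.33, -0.09 and -0.01 after 2 weeks and at 0.32, 0.72, 0.23 and 0.45 after 4 weeks. The 3 groups did not overlap. The 2-week difference was -1.33, a level 2.52-fold lower, with a limma adjusted p of 0.0387 over 10 arrays and 0.236 over 16. A second Stard4 probe, well above background on 10 of the 16 arrays, gave -1.09 and -1.01.

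Srebf2, the transcription factor most tied to cholesterol synthesis, was at -0.93, -0.82 and -0.70 in untreated mice, at -1.77, -1.28 and -1.40 after 2 weeks and at -2.13, -1.21, -0.83 and -1.38 after 4 weeks. It was apart from untreated at 2 weeks, by -0.67, and 1 array overlapped at 4 weeks, where the difference was -0.57, or -0.33 without array 1. Srebf1, which codes for the factor more tied to fatty acid synthesis, was at 4.15, 3.52 and 3.60 in untreated mice, at 4.61, 3.32 and 4.28 after 2 weeks and at 3.96, 4.23, 4.90 and 4.09 after 4 weeks. Its groups overlapped, with differences of 0.31 and 0.53 that did not pass the test (limma adjusted p = 0.799 and 0.591). The 2-week value of Srebf1 was 0.04 without 2-week array 1 and 0.69 without array 2, and its 4-week value was 0.33 without 4-week array 3. Scap, the escort protein, differed by -0.32 at 2 weeks without overlap and by -0.17 at 4 weeks with overlap, or -0.08 without untreated array 1 and -0.25 without 4-week array 2. The proteases Mbtps1 and Mbtps2, which are outside the 28 genes, differed by 0.04 and -0.06 at 2 weeks and by -0.22 and 0.21 at 4 weeks.

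**Figure D3:**
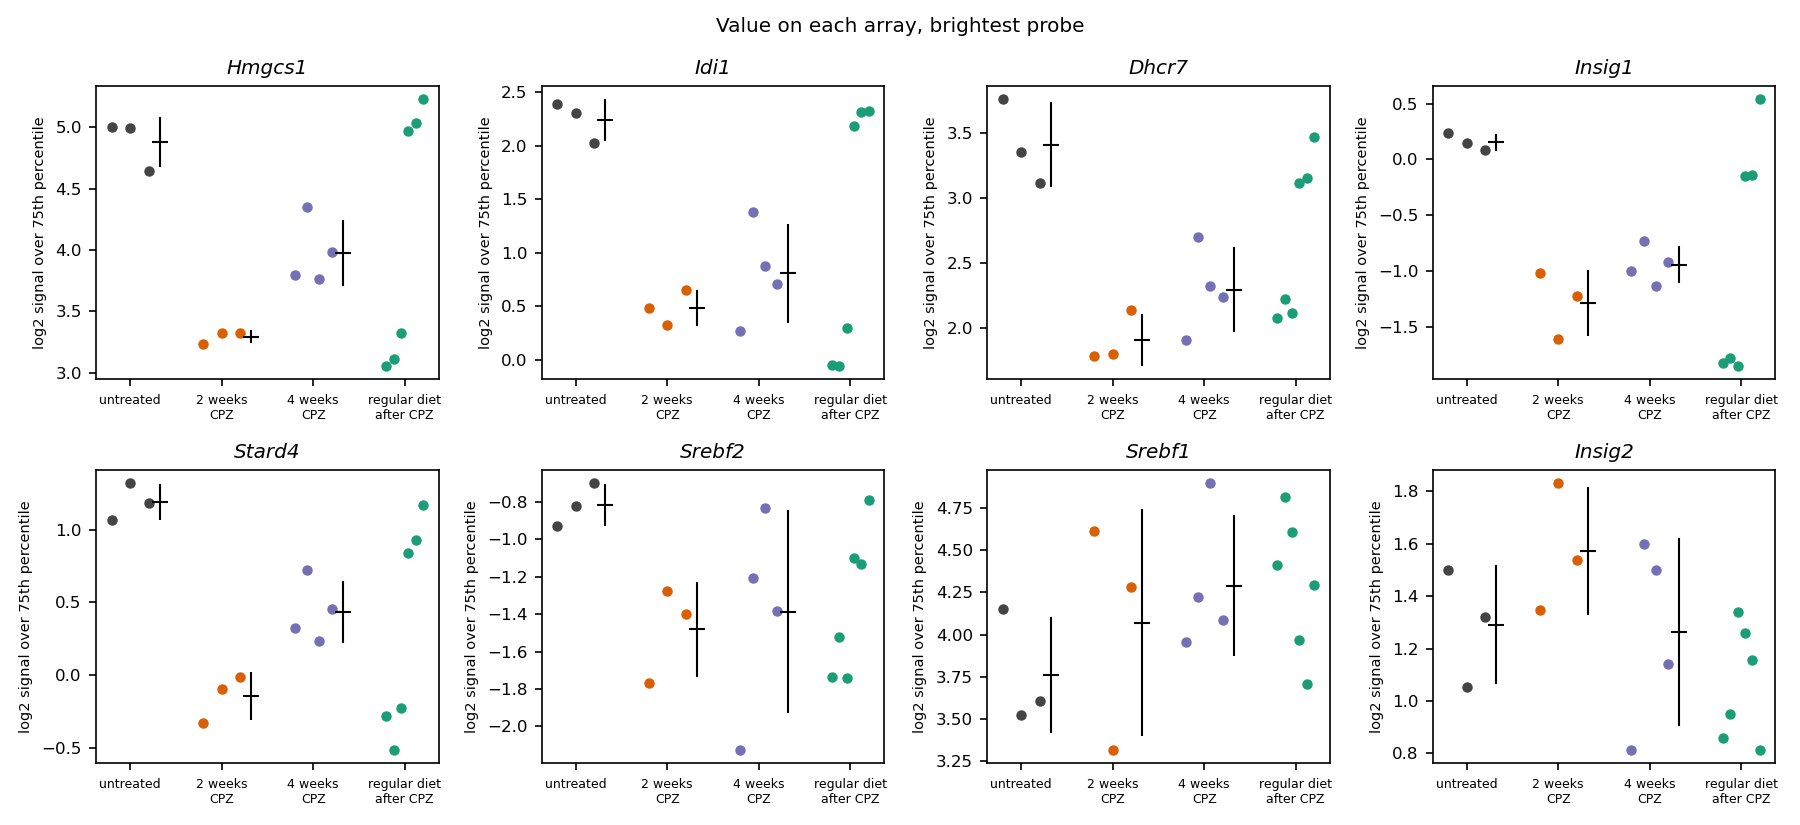
Log2 signal over the array's 75th percentile (y axes, each with its own range that does not start at 0) of 8 genes on each array (points, in replicate order) by group. Black dashes and bars give the mean and SD of the untreated (n = 3), 2-week (n = 3) and 4-week (n = 4) groups. For Hmgcs1, Idi1, Dhcr7, Insig1 and Stard4 all CPZ arrays lie below the untreated arrays and the regular diet arrays fall at both ends, whereas the groups of Srebf1 and Insig2 overlap.

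Between 2 and 4 weeks of CPZ, the differences were small. The median over the 28 genes was 0.15, beside -0.02 over all tested genes, and 5 of 28 genes were below 0, against 52.1% of all genes. Leaving out each array in turn, the median ranged from 0.06 to 0.30, and from 3 to 10 of the genes were below 0. Hmgcs1, Stard4 and Acat2 were higher on every 4-week array than on every 2-week array, by 0.68, 0.58 and 0.39, where 5.78% of all tested genes were. Without 2-week array 2 the Acat2 difference was 0.25. No gene of the set lay lower without overlap, against 9.34% of all tested genes. No gene passed the limma fit, where 0.267% of all genes did in either direction. In that fit 1 gene had an unadjusted p under 0.05, against 19.2% of all genes. The analysis of variance called 0, again with no share of all genes to set beside it. With each array centred on its median, the median over the 28 genes was 0.44, but that scaling also moved the median of all genes to 0.26.

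On regular diet after CPZ, the 6 arrays gave values at both ends of the range. Hmgcs1 was at 3.05, 3.11, 3.32, 4.97, 5.03 and 5.23 on arrays 1 to 6, with 5.00, 5.00 and 4.65 in untreated mice. Idi1 was at -0.04, -0.06, 0.30, 2.18, 2.32 and 2.32, and Insig1 at -1.83, -1.78, -1.85, -0.15, -0.14 and 0.54. For these genes arrays 1, 2 and 3 lay below every untreated array, and Insig1 on them was also below every CPZ array. Fdft1 was at -0.34, -0.17, 0.45, 1.29, 1.24 and 1.41 and was the 1 gene of the set with all 6 arrays below the untreated arrays, against 3.47% of all tested genes. The other Fdft1 probe again went the opposite way, at 0.84 above untreated. Srebf1 was at 4.41, 4.81, 4.61, 3.97, 3.71 and 4.30, with its 3 highest values on the arrays where Hmgcs1 was lowest.

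On arrays 1, 2 and 3, in each case 25 of the 28 genes lay below every untreated array, where 33.5%, 33.8% and 21.7% of all tested genes did. On arrays 4, 5 and 6 the numbers were 7, 6 and 3 of 28, with 20.4%, 21.9% and 26.2% of all tested genes. On array 6, 15 of the 28 genes lay above every untreated array, and 21.7% of all tested genes did. The median over the 28 genes, relative to the untreated mean, was -1.09, -0.997, -0.93, -0.08, -0.06 and 0.13 on arrays 1 to 6. On the CPZ arrays it lay between -1.04 and -0.45. Since the day of each array is not labelled, no groups were formed among them.

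**Figure D4:**
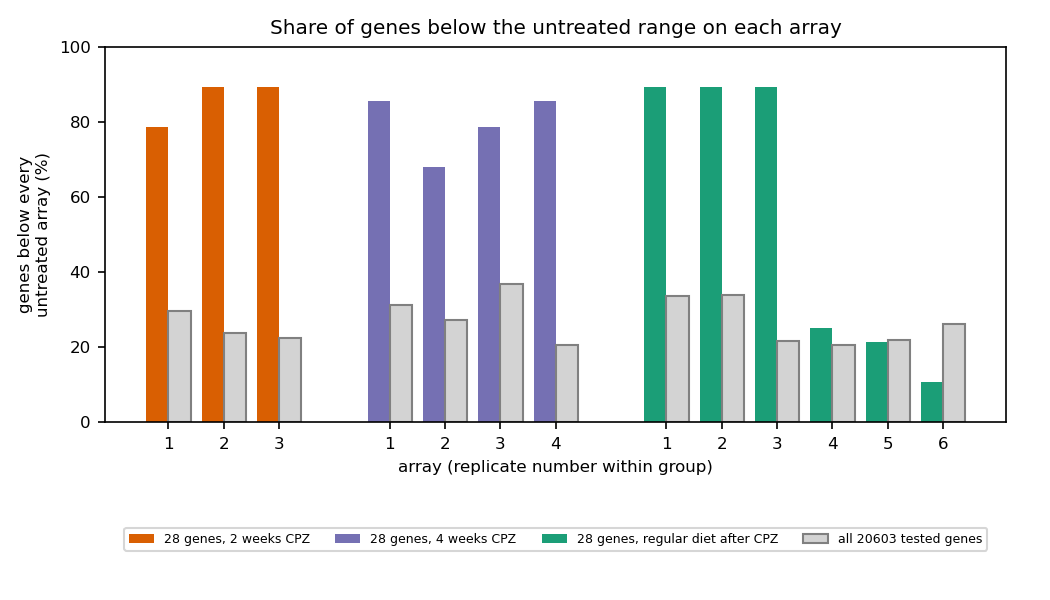
Percent of the 28 genes (coloured bars) and of all 20603 tested genes (grey bars) that lay below every untreated array, on each CPZ and regular diet array. The coloured bars reach 67.9 to 89.3% on the 7 CPZ arrays and on regular diet arrays 1, 2 and 3, and at most 25% on regular diet arrays 4, 5 and 6.

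Taken as the 1 group that the labels give, the regular diet arrays had a median difference of -0.48 from untreated, beside -0.01 over all tested genes, and of 0.13 from 4 weeks of CPZ, beside 0.03. The last median ranged from 0.02 to 0.30 on leaving out each array in turn, and it turned to -0.17 with median scaling (all genes -0.27). No gene of the set passed the limma fit against untreated, where 0.864% of all tested genes did, or against 4 weeks of CPZ, where 0.00485% did. At an unadjusted p under 0.05 the numbers were 5 of 28 against untreated (10.6% of all genes) and 1 of 28 against 4 weeks (26.6%). The analysis of variance called 0 in both comparisons, with no share of all genes to set beside it. Idi1, at -1.07, and Insig1, at -1.02, were at least 2-fold lower than in untreated mice, where 1.13% of all tested genes were. This count of 2 became 0 without regular diet array 1, 2 or 3 or untreated array 1, 4 without array 4 or 5 and 5 without array 6. None of the 28 lay above the untreated arrays on all 6 arrays, against 5.05% of all tested genes.

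Cell type markers are given beside these values. The oligodendrocyte and myelin list held 14 genes, of which 13 were tested and 11 were well above background on all arrays. Mog and Opalin each missed that mark on 1 array. At 2 weeks 13 of 13 and at 4 weeks 12 of 13 were at least 2-fold lower, against 2.87% and 8.7% of all tested genes, and 0 were called in the limma fit. The log2 of the summed myelin signal was 9.34 to 10.43 in untreated mice, 5.14 to 8.24 after 2 weeks and 5.62 to 8.73 after 4 weeks. On regular diet arrays 1 to 6 it was 6.80, 6.88, 7.45, 9.83, 9.91 and 10.37, so that of these 6 the 3 arrays with low cholesterol genes had the lower myelin sums. Among the 4-week arrays, array 1 was lowest both for the myelin sum, at 5.62, and for the median of the 28 genes, at -1.04. The order differed among the 2-week arrays, where array 1 had the highest myelin sum, at 8.24, and the lowest median, at -0.95, and array 2 had a myelin sum of 5.14 and a median of -0.91. The 7 tested microglial markers summed to 4.15 to 5.14 in untreated mice, 4.96 to 6.20 after 2 weeks, 5.65 to 7.07 after 4 weeks and 5.86 to 9.31 on regular diet. Regular diet arrays 1 and 2, at 8.91 and 9.31, stood above the other 4 arrays, at 5.86 to 6.45. The ranges at 4 weeks and on regular diet lay above the untreated range, and 4 of the 7 markers were at least 2-fold higher at 4 weeks, against 2.85% of all tested genes, with 0 called.

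The astrocyte sum was 7.33 to 7.90 in untreated mice, 7.44 to 7.82 at 2 weeks, 7.16 to 8.13 at 4 weeks and 7.31 to 7.71 on regular diet. The precursor sum was 4.80 to 5.71, 4.56 to 5.51, 4.85 to 5.61 and 5.21 to 5.95, and the neuron sum 6.86 to 7.45, 6.06 to 7.60, 6.82 to 7.95 and 6.24 to 7.28 in the same order. These sums overlapped between groups. Of the 7 astrocyte markers, 3 lay above the untreated arrays without overlap at 2 weeks and 2 at 4 weeks, against 8.19% and 5.35% of all tested genes. Gfap, at 1.18 and 1.13, and Slc1a3, at 1.05 and 1.01, were at least 2-fold higher at both times, where 9.81% and 2.85% of all tested genes were. Aqp4, Gja1 and Slc1a2 were below 0 at 2 weeks, by -0.46, -0.35 and -0.53. No precursor or neuron marker was 2-fold higher or lower at either time. The choroid plexus sum ranged from -0.11 to 5.42 over all arrays, and its groups overlapped too. Of its 4 tested markers, Ttr, at 1.08, and Kl, at 1.14, were at least 2-fold higher at 4 weeks, against 2.85% of all tested genes. Both overlapped with the untreated arrays. The part of these markers in the values of the 28 genes was not tested.

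**Figure D5:**
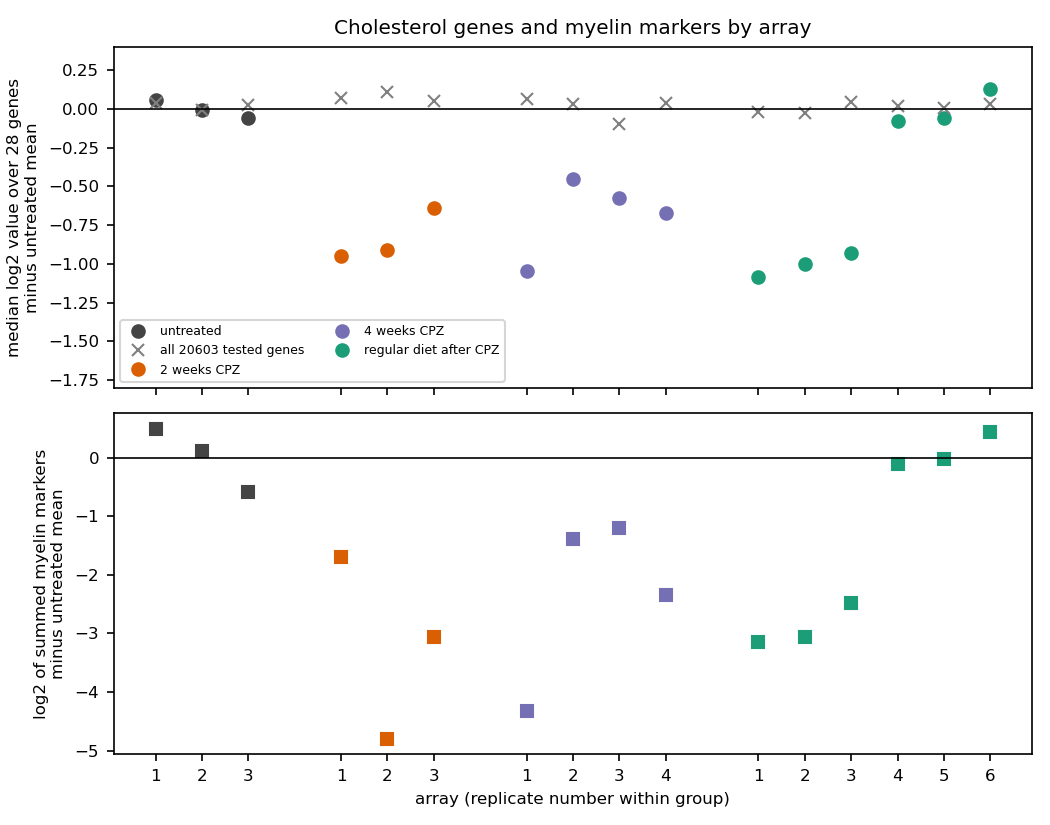
Top panel, median over the 28 genes of the log2 value minus the untreated mean on each array (circles), with the same median over all 20603 tested genes (crosses). Bottom panel, log2 of the summed signal of 13 myelin markers minus the untreated mean. On regular diet arrays 4, 5 and 6 both panels lie near 0, and on the CPZ arrays and regular diet arrays 1, 2 and 3 both lie below it.

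Other probes of the same genes gave a check within these arrays. Of 18 further tested probes, on 16 genes, 16 had the sign of the brightest probe at 2 weeks and 15 at 4 weeks. The exceptions were Fdft1 and Ggps1 at 2 weeks, and Fdft1, Ggps1 and Insig2 at 4 weeks. Of these probes, 16 at 2 weeks and 13 at 4 weeks lay below the untreated arrays without overlap, against 8.97% and 4.72% of all 27778 tested probes.

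The 16 arrays lay on 4 slides, and each slide was scanned once. Within a slide, each group compared had only 1 or 2 arrays. Within slide 1, the median over the 28 genes was -0.879 at 2 weeks against untreated, with 27 of 28 genes below 0. At 4 weeks it was -0.638 within slide 2 and -0.92 within slide 3, each 1 array against 1, with 24 of 28 below 0. Over all genes these 2 medians were -0.053 and -0.034. Between 4 and 2 weeks it was 0.297 within slide 4. Regular diet against untreated gave -0.181, -0.469 and -0.551 within slides 1, 2 and 3. Regular diet against 4 weeks gave 0.113, 0.293 and -0.338 within slides 2, 3 and 4, so that the last comparison changed sign. Of the regular diet arrays, slide 4 held only array 3, where the 28 genes were low. Slides 2 and 3 each held a low and a high array (2 and 6, and 1 and 5). A difference between slides can therefore not be told apart from which arrays lay on them.

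A list of 22 other sterol genes was set beside the 28, of which 19 were tested. It covered SREBP cleavage and turnover, other isoprenoid branches, and sterol hydroxylation and esterification. No gene of the list was called in any of the 5 comparisons. Its median difference was 0.02 at 2 weeks and 0.14 at 4 weeks. At 2 weeks 2 of the 19 lay below the untreated arrays without overlap and none above, against 8.6% and 8.19% of all tested genes. At 4 weeks none lay below and 2 lay above, against 4.45% and 5.35%. These 2 were Cyp7b1, an oxysterol hydroxylase, and Soat1, which esterifies cholesterol, both named after their values were seen.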

How the data were processed

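The authors deposited, per the file headers, background-subtracted intensity values of each spot from Agilent Feature Extraction 11.0.1.1, and log2 values made in GeneSpring with 75th percentile scaling, relative to the untreated arrays. Of the 41174 probes, the 41153 in both sources were used. Each array took the sample of the log2-table column it matched, and 27459 probes (66.7%) were named through RefSeq accessions. Outlier spots (48 to 126 an array) were left out. The log2 of the intensity minus that of the array's 75th percentile was fitted for 4 groups, with no covariate, with limma 3.58.1 in R 4.3.3 (12 residual and 2.33 prior degrees of freedom). Tested probes had to be well above background throughout at least 1 group. The share of probes well above background, 57.3 to 72.2%, stands in for depth, and the number of arrays limits the precision. All 28 genes with every probe, the markers, Mbtps1, Mbtps2 and other sterol genes called were to be named. Members, lists and tests were chosen with earlier results of these data known. The fit was tested on simulated data. Alternatives covered scaling, background, filters, slides (statmod 1.5.0), replicate numbers, the arrays fitted and their assignment, the source, test and probe.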

Additional observations from a re-analysis of the deposited data

Results flagged for a closer look

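In 2 of 58 sets of values (the 28 genes and their median, in the 4-week and the regular diet group), 1 array stood apart by Dixon's criterion, and chance gives about 1 in 20. Both were Ebp, the sterol isomerase. On 4-week array 4 it was at 3.08, with the other 3 arrays at 3.25 to 3.26. On regular diet array 3 it was at 2.55, with the nearest array at 3.26 and the highest at 3.48. Both arrays lay on slide 4.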

How the results depend on the processing

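Alternatives to the 16-array fit left the number of the 28 genes called at 0 in most settings. At 2 weeks against untreated it was 3 with only the untreated and CPZ arrays, and 4 there with any probe counted, against 0.24% of all genes, a setting chosen after the data were seen. At 4 weeks it was 1 with only the 2 groups compared, against 0.998% of all genes, and 2 with any probe in the 10-array fit, against 0.201%. Leaving out each array in turn gave 0 in all 5 comparisons. The median over the 28 genes then ranged from -0.92 to -0.76 (2 weeks against untreated), -0.86 to -0.63 (4 weeks against untreated), 0.06 to 0.30 (4 against 2 weeks), -0.61 to -0.36 (regular diet against untreated) and 0.02 to 0.30 (regular diet against 4 weeks). The values of single genes without 1 array were added after the data were seen. Median scaling moved it to -0.99 at 2 weeks and to 0.44 between 4 and 2 weeks, while the median of all genes moved to -0.11 and 0.26. It turned that of regular diet against 4 weeks from 0.13 to -0.17, with all genes at -0.27. Normexp, on the median signal because the files hold no mean signal, gave -0.53 and -0.49 at 2 and 4 weeks. The cause of these changes was not tested.

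The recorded assignment of scanner files, which parts from the closing numbers of their names for 14 of the 16, turned the median in several comparisons. It turned the median to 0.43, 0.30 and -0.13 in the 3 comparisons among untreated, 2 and 4 weeks. It turned that of regular diet against 4 weeks to -0.61 and took that of regular diet against untreated to -0.23. It also turned Hmgcs1 (0.80), Insig1 (0.43) and Stard4 (0.50) at 2 weeks and Insig1 at 4 weeks (0.25), by its construction from other arrays. Replicate numbers did not pair the samples, since the correlation of same-numbered deviations ranged from -0.806 to 0.343. With the replicate number as a block, only regular diet arrays 1, 2 and 3 were used against untreated. There 6 of the 28 genes were called, where 0.607% of all genes were, with a median of -0.99. On each of these arrays 25 of the 28 genes lay below every untreated array. Blocking and the choice of arrays can therefore not be told apart here. The block gave 0 calls in the other 4 comparisons. With regular diet arrays 1 to 4, and so without arrays 5 and 6, the block turned the median against 4 weeks to -0.13.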

Other observations

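Ch25h, which makes an oxysterol that restrains SREBP, was at -1.33, -0.84 and -1.92 in untreated mice and at 4.37, 4.54, -0.58, -0.27, 0.83 and -0.78 on regular diet arrays 1 to 6. All 6 arrays lay above the untreated arrays, with a difference of 2.72 that did not pass the limma fit (adjusted p = 0.402). Soat1 was at 0.64, 0.07 and -0.30 in untreated mice, at 1.61, 0.88, 1.82 and 1.24 after 4 weeks of CPZ and at 2.65, 2.81, 1.37, 0.83, 0.79 and 0.46 on regular diet. Both genes were named after their values were seen.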
